A study of Mus musculus with 9 samples.

Results

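Genes of synaptic transmission were followed in the thalamus of C57/BL mice on day 7 after photothrombotic stroke, a model that closes small vessels by lighting up a dye in the blood. The tissue came from 3 groups of wild-type (WT) animals called mmpp, stroke and sham, with 3 samples each. All samples carry the same genotype label, and the labels used here do not state the mice's age, the dose, what mmpp abbreviates or which groups received the melanin nanozyme that the study injected. It is also not stated if each sample is a single mouse or pooled tissue, and the authors' p-values therefore cover the spread between these samples alone, some of which may be technical.

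The members are the genes of the authors' deposited tables whose KEGG annotation holds at least 1 of 4 terms: synaptic vesicle cycle, nicotine addiction, glutamatergic synapse or GABAergic synapse. Genes whose names mark them as solute carriers, vacuolar ATPase subunits (Atp6) or potassium, calcium, sodium and HCN channels were left out, 15 from the table of stroke against sham and 3 from that of mmpp against stroke. This gave 51 members of 4277 genes in either table: 49 in the table of stroke against sham, 6 in that of mmpp against stroke and 4 in both. Each table holds only genes whose p-value is under 0.05 and whose log2 fold change is 1 or more in size, so being listed chose the members and is no result. Among members in stroke against sham, Gabarapl1, with a log2 fold change of -1.02, and Grk3, with p = 0.0476, stood nearest to these limits in the authors' deposited table. In mmpp against stroke it was Gabra3, with p = 0.0498 and a log2 fold change of 1.04 in the authors' deposited table. What lies just outside the limits was not analysed here. Values are group means in TPM, a share of all transcripts corrected for transcript length, and a value per sample, an error or a depth behind them was not analysed here. Only genes whose q-value in that table (the p-value adjusted over genes) is under 0.05 are said to rise or fall.

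A nerve impulse makes vesicles at the axon ending fuse with the membrane, driven by SNARE proteins that a calcium sensor triggers, and the vesicle membrane is then retrieved and refilled. Released glutamate opens AMPA, kainate and NMDA receptor channels and excites the next neuron, while GABA opens chloride channels that inhibit it. Slower receptors act through G proteins, adenylyl cyclase and phospholipase C. Thalamic relay neurons excite the cortex with glutamate, and neurons of the thalamic reticular nucleus inhibit them with GABA. Many G protein, phospholipase and calcium release genes of these pathways also work in glia and immune cells.

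Stroke was compared with sham to ask how these genes differed in the thalamus after the injury. Every member of vesicle fusion and retrieval, of the transmitter receptors and of transmitter synthesis was lower after stroke, and the 10 members that were higher were 9 signalling genes and a proton pump subunit. Some of these roles held few members. Vesicle retrieval had 1 of 11 genes in its role list, and postsynaptic scaffolds had 1 of 9. GABA-A trafficking had 2 of 6, and GABA-B receptors had 0 of 2. Of 49 members, 39 were lower (79.6%), where 39.4% of all 4071 listed genes and 33% of the listed genes with any KEGG pathway were lower. By the authors' q-value 19 members fell (38.8% of 49) and 10 rose (20.4% of 49), against 17.2% and 49.4% of all listed genes. Among lower members alone, 48.7% passed that limit, close to the 43.8% of all lower genes. All 10 higher members passed it, where 81.5% of all higher genes did.

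**Figure D1:**
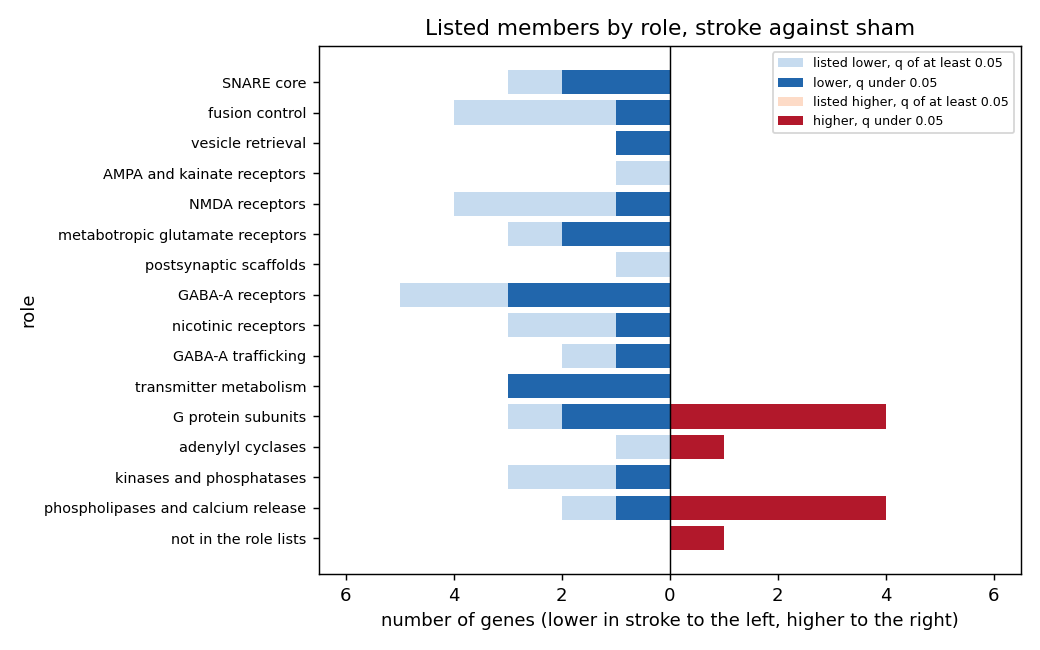
Number of listed members in each role, lower in stroke to the left of 0 and higher to the right, with genes at a q-value under 0.05 in dark colours. The vesicle, receptor and synthesis roles have bars to the left only, and the right side holds 4 G protein subunits, 1 adenylyl cyclase, 4 genes of phospholipases and calcium release, and the proton pump subunit outside the role lists.

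The lower members had changes of much the same size as lower genes in general. Their median log2 fold change was -1.30, beside -1.31 for all 1602 lower genes, and 28 of 39 (71.8%) lay between -1.5 and the limit of -1, beside 69% of all lower genes. Another 7 lay between -2 and -1.5, and 4 were at or below -2, Gnb3, Chrna6 and Gabra5 among them. Together the 39 genes held 0.306% of all TPM in stroke and 0.729% in sham. The 10 higher members held 0.15% in stroke and 0.0452% in sham, with a median log2 fold change of 1.66, below the 2.34 of all higher genes. Genes listed higher held 20.6% of all TPM in stroke and 3.42% in sham. The TPM left to all other genes together therefore differed by -0.28 on the log2 scale. That remainder includes the lower genes themselves, so the shift of any single gene for this reason is not known. With TPM rescaled to that remainder, the median of all 49 members was -0.97 in place of -1.26. Of the 39 lower members, 22 still reached a log2 fold change of -1. In bulk tissue, fewer cells of a type and less RNA per cell cannot be told apart.

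**Figure D2:**
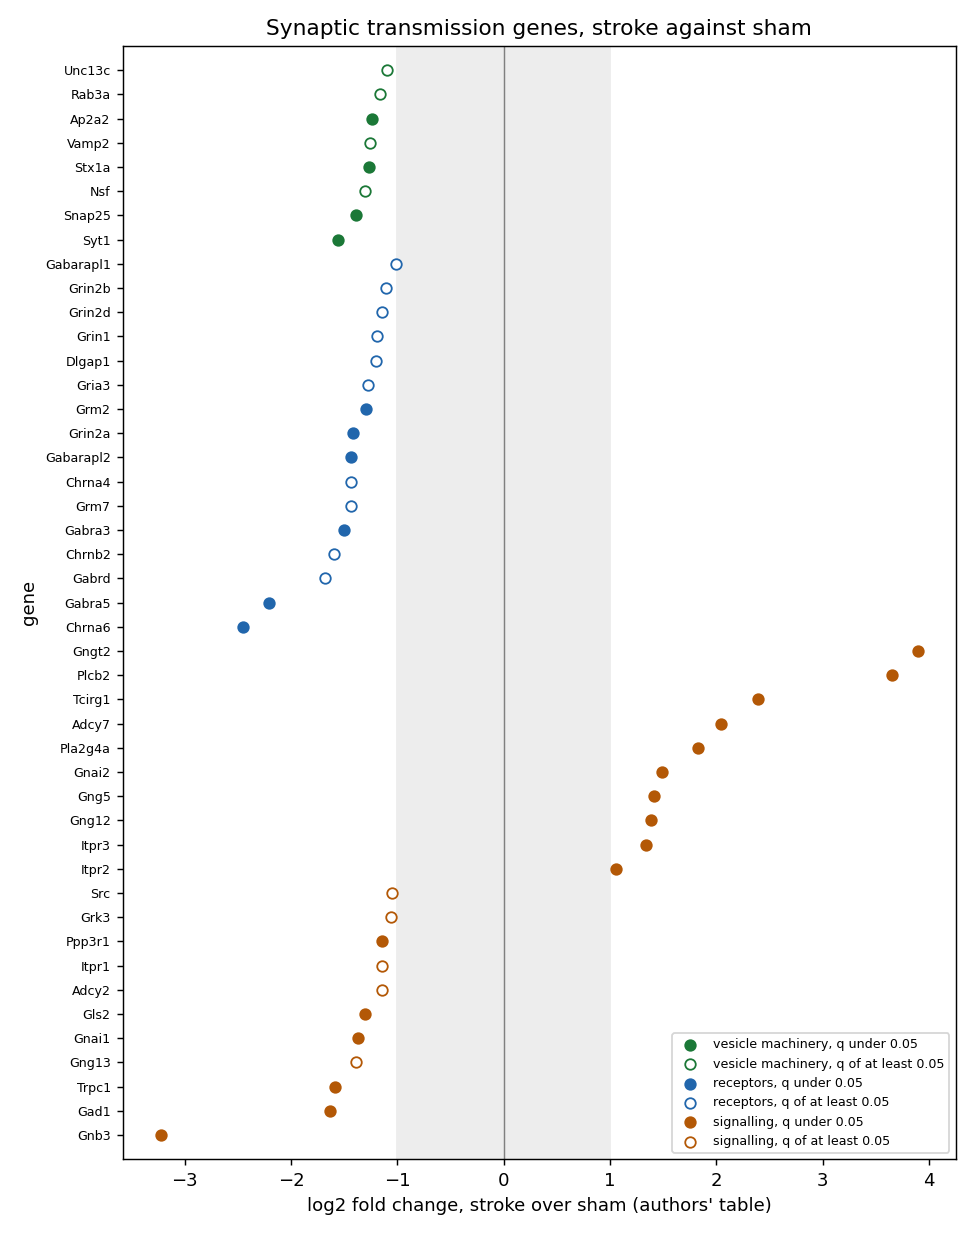
Log2 fold change of the members described by name or symbol, stroke over sham, from the authors' deposited table, grouped by class and filled where the q-value is under 0.05. The grey band marks changes below the limit of the table. Vesicle genes lie between -1.56 and -1.10, receptors between -2.45 and -1.02, and signalling genes between -3.22 and 3.89. Tcirg1, which has the vesicle cycle term but is outside the role lists, is counted with signalling.

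The start regions of 3 members are shown because they stand for both directions and for the fusion machinery: Plcb2 had the smallest p-value of the higher members, Gabra5 the smallest of the lower ones, and Stx1a is a SNARE gene that fell. Each is 300 bases from RefSeq on GRCm38.p6, 250 before the start site and 50 from it on, read 5′ to 3′ along the gene. Capitals mark GAGGAA, an ETS core of the PU.1 type, and GGGCGG, a GC box, on either strand.
Plcb2, chr2:118728389-118728688, minus strand: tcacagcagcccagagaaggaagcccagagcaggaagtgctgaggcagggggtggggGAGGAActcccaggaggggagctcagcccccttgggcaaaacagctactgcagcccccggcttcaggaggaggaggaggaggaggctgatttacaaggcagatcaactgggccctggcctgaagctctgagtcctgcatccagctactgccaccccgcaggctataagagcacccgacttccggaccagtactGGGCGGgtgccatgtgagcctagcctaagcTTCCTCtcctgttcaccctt
Gabra5, chr7:57510010-57510309, minus strand: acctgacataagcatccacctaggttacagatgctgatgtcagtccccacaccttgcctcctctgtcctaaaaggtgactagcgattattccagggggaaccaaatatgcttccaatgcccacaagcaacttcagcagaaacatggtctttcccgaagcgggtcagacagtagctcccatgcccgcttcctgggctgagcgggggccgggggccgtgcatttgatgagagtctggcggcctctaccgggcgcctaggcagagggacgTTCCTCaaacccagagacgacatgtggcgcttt
Stx1a, chr5:135023232-135023531, plus strand: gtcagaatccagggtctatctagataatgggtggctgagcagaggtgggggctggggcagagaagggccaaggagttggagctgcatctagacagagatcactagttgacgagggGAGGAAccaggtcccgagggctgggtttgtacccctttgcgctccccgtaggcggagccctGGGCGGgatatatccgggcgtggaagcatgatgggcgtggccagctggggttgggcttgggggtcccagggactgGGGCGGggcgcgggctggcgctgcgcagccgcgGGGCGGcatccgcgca

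RefSeq start regions were matched by symbol for 34 of the 51 members. GAGGAA stood in 3 of 14 start regions of 8 higher members (21.4%) and in 8 of 30 start regions of 24 lower members (26.7%), beside 28.3% of all 32851 regions. The GC box stood in 64.3% of the start regions of higher members and 70% of those of lower members, beside 35.7% of all. TGACGT, the core of the cyclic AMP response element, stood in 0 of 14 regions of higher members and 5 of 30 of lower members (16.7%), beside 7.51% of all. Both sets were GC-rich, with a median of 60.3% in higher and 60.8% in lower members and 52.7% over all regions. These matches describe letters only.

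The members of the SNARE core and of the proteins that set its timing were all lower. Of 9 SNARE genes in the role list, 3 were members, and of 14 fusion control genes, 4. Snap25, the membrane SNARE of the axon ending, had a mean of 258.3 TPM in stroke and 674.8 TPM in sham and fell 2.61-fold (q = 0.000278, authors' deposited table). Its partner syntaxin, Stx1a, fell to 49.6 TPM in stroke, against 119 TPM in sham (q = 0.00517, authors' deposited table). The vesicle SNARE Vamp2 had the highest level of all lower members, with 635.0 TPM in stroke and 1516 TPM in sham, but did not pass the limit (q = 0.0902, authors' deposited table). The calcium sensor gene Syt1 showed the largest fold of this class, with 96.4 TPM in stroke and 284.0 TPM in sham (2.95-fold, q = 0.0162, authors' deposited table). Ap2a2, a subunit of the AP-2 adaptor that draws clathrin to the membrane for retrieval, fell to 63.5 TPM in stroke, against 149.9 TPM in sham (q = 0.0274, authors' deposited table).

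Other vesicle genes were listed lower without passing. Nsf, the ATPase that takes spent SNARE complexes apart, stood at 144.0 TPM in stroke and 355 TPM in sham (q = 0.0718), and the vesicle GTPase gene Rab3a at 632 TPM in stroke and 1413 TPM in sham (q = 0.153), in the authors' deposited table. Unc13c, which primes vesicles, was the only low-level gene of the class, with 3.36 TPM in stroke and 7.19 TPM in sham (q = 0.15, authors' deposited table). The 8 vesicle genes together had 1882 TPM in stroke and 4519 TPM in sham, and their median log2 fold change was -1.26. Of the 8 genes, 4 fell, and all 8 had fold changes between 2.14 and 2.95.

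Some SNARE partners lack the KEGG terms of the rule but are in the role lists. Rims1, an active zone scaffold, fell to 8.69 TPM in stroke, against 21.5 TPM in sham (q = 0.00531), and the Nsf attachment gene Napb to 26.7 TPM in stroke, against 64.8 TPM in sham (q = 0.013), in the authors' deposited table. Snap23, the SNARE of the same family used outside neurons, went the other way and rose 3.2-fold, with 12.4 TPM in stroke and 3.86 TPM in sham (q = 0.00297, authors' deposited table). Vamp1 was listed at 145 TPM in stroke and 358 TPM in sham (q = 0.183, authors' deposited table).

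**Figure D3:**
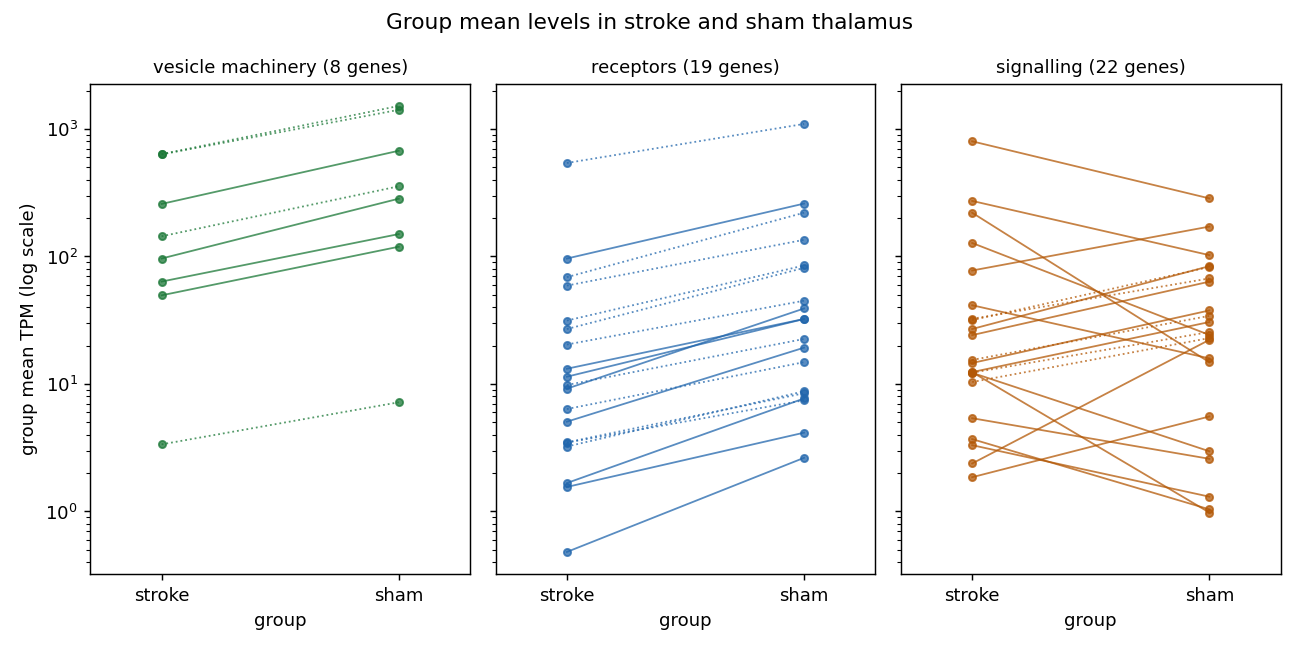
Group mean TPM on a log scale for each member in stroke (left) and sham (right), in 3 panels by class. Solid lines are genes with a q-value under 0.05 and dotted lines the others. All lines of the vesicle and receptor panels are lower at stroke, from 0.481 TPM for Chrna6 to 635.0 TPM for Vamp2, while the signalling panel holds lines of both directions. Tcirg1, which has the vesicle cycle term and rose, is outside the role lists and is drawn in the signalling panel.

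All 8 listed ionotropic and metabotropic glutamate receptor genes were lower, and 3 of them fell. The release-limiting receptor gene Grm2 fell to 13.2 TPM in stroke, against 32.3 TPM in sham (q = 0.0263, authors' deposited table). Among NMDA receptor genes, 4 of 7 were listed. Grin2a fell to 1.56 TPM in stroke, against 4.15 TPM in sham (q = 0.0121, authors' deposited table). Grin1, the subunit every NMDA receptor needs, had 59.1 TPM in stroke and 135 TPM in sham (q = 0.152, authors' deposited table). Both other NMDA subunits missed the limit too, Grin2d with 20.4 TPM in stroke and 45.0 TPM in sham (q = 0.123) and Grin2b with 3.47 TPM in stroke and 7.45 TPM in sham (q = 0.151), in the authors' deposited table.

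Of 9 AMPA and kainate receptor genes 1 was listed, Gria3, at 3.48 TPM in stroke and 8.46 TPM in sham (q = 0.12, authors' deposited table). Grm7, a presynaptic receptor, stood at 3.23 TPM in stroke and 8.76 TPM in sham (q = 0.105), and the scaffold gene Dlgap1 at 9.82 TPM in stroke and 22.6 TPM in sham (q = 0.0812), in the authors' deposited table. Genes that are not listed may have missed either limit, so nothing is known of the remaining receptor subunits.

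GABA-A receptor genes were lower, with large decreases among them. Of 19 genes in the list, 5 were listed in stroke against sham, all lower, and 3 fell. Gabra5, an example of the alpha subunits that shape the receptor's response to GABA and benzodiazepines, had 1.67 TPM in stroke and 7.70 TPM in sham, a fall of 4.61-fold (q = 4.63e-06, authors' deposited table). Gabra3, which neurons of the reticular nucleus use, fell 2.84-fold, with 11.4 TPM in stroke and 32.3 TPM in sham (q = 0.0112, authors' deposited table). The delta subunit gene Gabrd, whose receptors sit outside synapses, was the most abundant listed subunit per length, with 68.8 TPM in stroke and 220.4 TPM in sham, but its 3.2-fold difference did not pass (q = 0.144, authors' deposited table).

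Genes that make the transmitters and carry the receptors were lower as well. Gad1, the enzyme that makes GABA from glutamate, fell to 27.0 TPM in stroke, against 83.9 TPM in sham (q = 0.0104, authors' deposited table). Gls2, a glutaminase that makes glutamate from glutamine, fell to 12.4 TPM in stroke, against 30.6 TPM in sham (q = 0.0271, authors' deposited table). All 3 members with this role passed, and a further gene of the list of 7 that lacks the KEGG terms, Aldh5a1, which breaks down GABA, was listed at 13.4 TPM in stroke and 30.01 TPM in sham (q = 0.0658, authors' deposited table). Gabarapl2, of the family of ubiquitin-like proteins that serves receptor transport and autophagy, fell to 96.3 TPM in stroke, against 259.9 TPM in sham (q = 0.000239, authors' deposited table). Its relative Gabarapl1 had 541 TPM in stroke and 1095 TPM in sham (q = 0.134, authors' deposited table).

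Nicotinic acetylcholine receptor genes were lower too, 3 of 4 in the list. Chrnb2 had 27.0 TPM in stroke and 81.4 TPM in sham (q = 0.0628), and Chrna4, with which it forms the main brain receptor, 31.4 TPM in stroke and 85.0 TPM in sham (q = 0.127), in the authors' deposited table. Chrna6, a subunit best known from midbrain dopamine neurons, fell 5.47-fold, with 0.481 TPM in stroke and 2.63 TPM in sham (q = 0.000129, authors' deposited table). Markers of midbrain dopamine neurons, chosen after this value was seen, were lower in parallel: 7 of 10 were listed lower and none higher, 5 of them fell, and the listed ones summed to 35.6 TPM in stroke and 118 TPM in sham. The dopamine transporter gene Slc6a3 stood at 0.225 TPM in stroke and 18.8 TPM in sham (q = 2.2e-19, authors' deposited table). The part of neighbouring tissue in the result for Chrna6 was not tested.

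Signalling genes were the class in which both directions occurred, often within a family. Of 7 listed G protein subunits 4 rose, 2 fell and 1 was listed lower. Gngt2, a gamma subunit named for cone photoreceptors, showed the largest rise of all members, 14.9-fold, with 220.3 TPM in stroke and 14.8 TPM in sham (q = 2.96e-09, authors' deposited table). Gnai2, an inhibitory alpha subunit abundant in immune cells, rose to 800.0 TPM in stroke, against 285 TPM in sham (q = 0.00313), while its relative Gnai1 fell to 14.6 TPM in stroke, against 37.7 TPM in sham (q = 0.0437), in the authors' deposited table. The widely used gamma subunit genes Gng5 and Gng12 rose 2.66-fold (q = 0.00777) and 2.61-fold (q = 0.00526) in the authors' deposited table. Gng13, a further gamma subunit, was at 31.7 TPM in stroke and 82.7 TPM in sham (q = 0.0552, authors' deposited table).

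Gnb3, the beta subunit of cones, had the largest fall of all members, 9.32-fold, with 2.38 TPM in stroke and 22.2 TPM in sham (q = 0.0124, authors' deposited table). The pineal gland, which lies on the thalamus, is related to photoreceptors. In a list of 11 pineal markers chosen after this value was seen, 4 were listed lower and none higher, summing to 1.05 TPM in stroke and 8.80 TPM in sham. Asmt, the last enzyme of melatonin synthesis, fell to 0.0986 TPM in stroke, against 3.58 TPM in sham (q = 0.00183, authors' deposited table). Their part in the result for Gnb3 was not tested.

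The roles of phospholipases and calcium release and of adenylyl cyclases also had members listed in both directions. All the higher ones passed the q-value limit, and of the lower ones only the cation channel gene Trpc1 did. Plcb2, a phospholipase C known from blood cells and taste cells, rose 12.6-fold, with 12.4 TPM in stroke and 0.981 TPM in sham (q = 2.06e-22, authors' deposited table). Pla2g4a, which frees arachidonic acid from membranes, rose to 3.69 TPM in stroke, against 1.04 TPM in sham (q = 0.0387, authors' deposited table). The calcium release channel genes Itpr2 and Itpr3 rose 2.08-fold (q = 9.03e-05) and 2.53-fold (q = 0.000155), whereas Itpr1, the form of neurons, was listed at 10.4 TPM in stroke and 22.9 TPM in sham (q = 0.175), in the authors' deposited table. Adcy7, an adenylyl cyclase of immune cells, rose 4.13-fold, with 12.2 TPM in stroke and 2.97 TPM in sham (q = 0.0159), and Adcy2, a brain form, was listed at 15.4 TPM in stroke and 34.2 TPM in sham (q = 0.119), in the authors' deposited table.

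Trpc1, a cation channel opened through this pathway, fell to 1.86 TPM in stroke, against 5.56 TPM in sham (q = 0.000277, authors' deposited table). The calcineurin regulatory subunit gene Ppp3r1 fell to 77.6 TPM in stroke, against 172 TPM in sham (q = 0.0366, authors' deposited table). The kinase genes Src, at 32.4 TPM in stroke and 67.3 TPM in sham (q = 0.126), and Grk3, at 12.3 TPM in stroke and 25.5 TPM in sham (q = 0.179), were listed lower in the authors' deposited table. Tcirg1 carries the term for the vesicle cycle although it encodes a vacuolar proton pump subunit, best known from osteoclasts. It rose 5.27-fold, with 128 TPM in stroke and 24.2 TPM in sham (q = 2.16e-12, authors' deposited table), and was the only member of that term that was higher.

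The terms differed in how their members divided. Nicotine addiction, which holds receptors only after the exclusions, had 13 lower and 0 higher. Synaptic vesicle cycle had 8 lower and 1 higher, GABAergic synapse 16 lower and 5 higher, and glutamatergic synapse 19 lower and 9 higher, with 22 members under more than 1 term. The gene ontology annotation in the authors' deposited table named the synapse for 0 of 10 higher and 21 of 39 lower members (53.8%), beside 0.567% of all higher and 7.05% of all lower genes. The rule did not use this annotation, but its KEGG terms name synapses too. A larger share in lower members than in all lower genes therefore largely follows from how they were chosen. Postsynaptic membrane was named for 0 of 10 higher and 15 of 39 lower members.

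Markers of cell types moved beside these classes. All 12 microglia and macrophage markers were higher, on 13 identifiers since Itgam stands on 2, and they summed to 11149 TPM in stroke and 653 TPM in sham. Of 10 thalamic relay neuron markers, 5 were listed, all lower, summing to 449 TPM in stroke and 978 TPM in sham, so relay neuron markers were present in both groups. Most of that sum was Calb2, which did not pass, with 386 TPM in stroke and 792 TPM in sham (q = 0.153, authors' deposited table). Inhibitory neuron markers had 3 of 8 listed lower, Gad1 among them, with 211 TPM in stroke and 548 TPM in sham. Choroid plexus markers had 8 of 10 listed lower, with 394 TPM in stroke and 4401 TPM in sham. Of this, Ttr alone held 372 TPM in stroke and 4317 TPM in sham. Cerebellar markers had 5 of 15 listed lower, the member Itpr1 among them, with 45.0 TPM in stroke and 109.9 TPM in sham. Only Calb1 of these 5 passed, with 13.0 TPM in stroke and 40.6 TPM in sham (q = 0.0108, authors' deposited table). Astrocyte markers had 2 of 8 listed higher, endothelium 1 of 6, and oligodendrocytes and habenula none listed. The part of any of these in the members' differences was not tested.

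**Figure D4:**
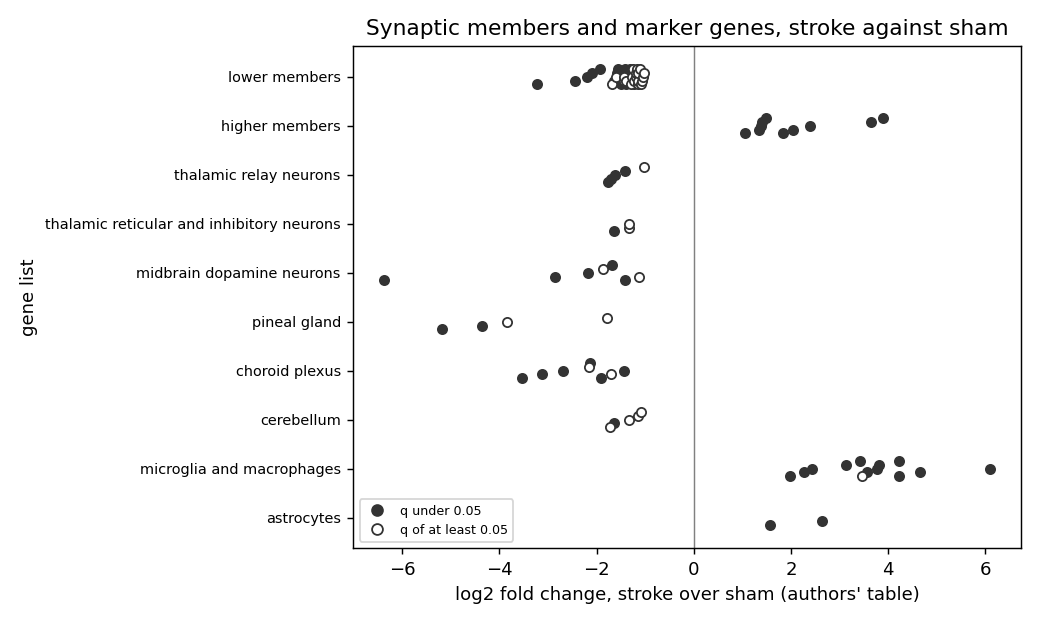
Log2 fold change, stroke over sham, of the 39 lower and 10 higher members (top rows) and of listed marker genes by cell type or tissue, filled where the authors' q-value is under 0.05. Neuronal, pineal, choroid plexus and cerebellar markers lie left of 0 with the lower members, and microglial and astrocyte markers lie right of 0 with the higher ones. Gad1 and Itpr1 are drawn both among the lower members and in a marker row.

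Synaptic genes outside the KEGG terms were mostly not listed, and most of those listed were lower. Of 29 other vesicle proteins, 12 were listed, all lower, and 5 fell. Sv2b, a vesicle membrane protein, fell 4.18-fold, with 9.16 TPM in stroke and 38.3 TPM in sham (q = 0.000159), and Synj1, which strips the clathrin coat, fell 2.63-fold (q = 0.0357), in the authors' deposited table. Of 20 adhesion and organizer genes, 6 were listed lower and 3 fell, among them the pentraxin receptor gene Nptxr, at 103 TPM in stroke and 248.0 TPM in sham (q = 0.0196, authors' deposited table). Among 20 other postsynaptic genes, the AMPA receptor partner Cnih2 fell to 184 TPM in stroke, against 556 TPM in sham (q = 0.00212), 1 was listed lower, and Baiap2, an actin regulator, rose to 32.3 TPM in stroke, against 14.0 TPM in sham (q = 0.00165), in the authors' deposited table. Glrb, the anchoring subunit of glycine receptors, was the 1 listed gene of 5 and fell to 15.8 TPM in stroke, against 50.5 TPM in sham (q = 0.00131, authors' deposited table). Of 15 transporters that supply the synapse with transmitter, 4 were listed lower and 1 higher, and 2 fell and 1 rose. The vesicular glutamate transporter of relay neurons, Slc17a6, fell to 20.7 TPM in stroke, against 63.7 TPM in sham (q = 0.00588, authors' deposited table). Slc6a11 fell to 296 TPM in stroke, against 692 TPM in sham (q = 0.0276, authors' deposited table). Slc38a5 rose to 9.73 TPM in stroke, against 4.77 TPM in sham (q = 0.0116, authors' deposited table).

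The mmpp group was compared with stroke to ask whether synaptic genes differed between them. None of the 6 listed members had a q-value under 0.05, where 0.784% of all 1021 listed genes did, so the following are values at an unadjusted p under 0.05. The authors' test program is not named in the notes used here, and no other could be run on group means. Of the 6 members 4 were listed higher in mmpp, where 25.9% of all listed genes were higher, among them Gabra3, Gabra6 and Pla2g4d.

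Gabra3 had 23.5 TPM in mmpp, 11.4 TPM in stroke and 32.3 TPM in sham (mmpp against stroke q = 0.823, authors' deposited tables). Its mmpp mean stood at 72.7% of its sham mean. For 2 signalling genes the stroke mean was the highest of the 3. Gngt2 had 68.2 TPM in mmpp, 220.3 TPM in stroke and 14.8 TPM in sham (mmpp against stroke q = 0.516), and Plcb2 had 5.90 TPM in mmpp, 12.4 TPM in stroke and 0.981 TPM in sham (q = 0.772), in the authors' deposited tables. Their mmpp means were 4.61 and 6.01 times the sham means. Both comparisons use the same stroke samples, so a chance deviation there moves a gene in opposite directions, and mmpp was not tested against sham.

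**Figure D5:**
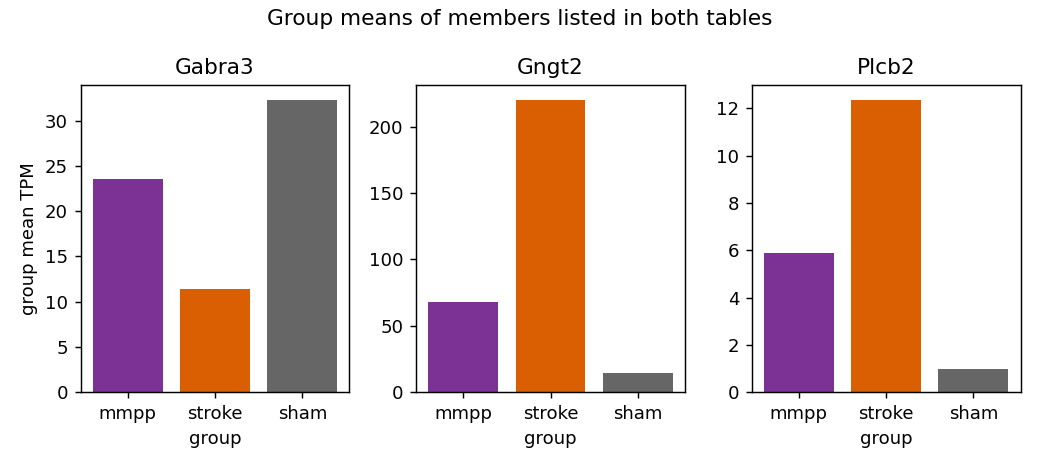
Group mean TPM of 3 members listed in both tables, for mmpp, stroke and sham from left to right, each panel with its own axis from 0. The mean of Gabra3 is lowest in stroke and those of Gngt2 and Plcb2 highest in stroke, with mmpp between stroke and sham in each.

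The other members listed in mmpp against stroke were near 0 in TPM. Gabra6, the alpha subunit of cerebellar granule cells, had 0.656 TPM in mmpp and 0.0705 TPM in stroke (q = 0.406), and Pla2g4d, a phospholipase A2, 0.289 TPM in mmpp and 0.0151 TPM in stroke (q = 0.7), in the authors' deposited table. Gabra6 is 1 of 15 cerebellar markers, of which 6 were listed higher in mmpp and none lower. Gabra6 included, these summed to 63.5 TPM in mmpp and 17.0 TPM in stroke. Most of this was Calb1, with 37.5 TPM in mmpp and 13.0 TPM in stroke (q = 0.524, authors' deposited table). The part of cerebellar tissue in the value of Gabra6 was not tested. Of the microglial markers, 3 of 12 were listed, on 4 identifiers and all lower, with 841 TPM in mmpp and 2468 TPM in stroke. Most of this was Cd68, with 814 TPM in mmpp and 2398 TPM in stroke. Relay neuron markers had 3 of 10 listed higher, with 94.6 TPM in mmpp and 35.1 TPM in stroke, and inhibitory neuron markers 2 of 8, with 515 TPM in mmpp and 225.0 TPM in stroke. Nearly all of the inhibitory sum was Sst, with 512 TPM in mmpp and 224 TPM in stroke. The part of these markers in the members' values was not tested. Outside the KEGG terms, the GABA-A subunit gene Gabre was listed at 3.47 TPM in mmpp and 0.995 TPM in stroke (q = 0.816, authors' deposited table). Glrb was listed at 38.9 TPM in mmpp and 15.8 TPM in stroke (q = 0.752), Nptxr at 228 TPM in mmpp and 103 TPM in stroke (q = 0.769) and Snap23 at 6.18 TPM in mmpp and 12.4 TPM in stroke (q = 0.815), in the authors' deposited table. Of the adhesion and organizer genes, 4 of 20 were listed in this comparison, all higher in mmpp and none with a q-value under 0.05.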

How the data were processed

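Thalamic RNA from 9 samples was analysed, 3 per group. Per the labels' protocols it was extracted with TRIzol and sequenced from SMARTER mRNA libraries. The submitters' processing notes name HTSeq 0.6.0, TopHat2 2.0.12 and Bowtie2 2.2.3, with GRCm39 as the build. Which program gave the p-values is not stated in the notes or labels. The authors deposited, per the file headers, for each listed gene the group mean TPM, the q-value, the p-value and the log2 fold change. That log2 value equals the log2 ratio of the mean TPM values (largest difference 5.35e-11), so no pseudocount is in it. The results of 4 members are not reported here. No member had a mean at the table's floor of 0.0001 TPM.

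No values per sample were in the tables analysed here, so no test was run and calls are the authors' q-value under 0.05. Depth and replicate spread are unknown. Members, lists and roles were chosen with earlier results of these data known, and role lists were written from gene symbols. Named genes were members with q under 0.05, members in both tables and up to 4 members per role with the smallest p. Gng13, Gabrd, Itpr1, Gabra6, Pla2g4d and genes outside the rule were named after their values were seen. Shares, sums and start region matches were computed with Python 3.11.15, pandas 2.3.3 and numpy 2.4.6, and the counting was tested on simulated data.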

Additional observations from a re-analysis of the deposited data

How the results depend on the processing

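No paired analysis was possible because the tables hold group means without values per sample, and for the same reason no sample could be left out and no test refitted. The counts below therefore apply other limits to the authors' values. With a q-value under 0.01 the 19 members that fell became 7, and the 10 that rose became 8. With a log2 fold change of 1.5 or more in size, the members that fell numbered 9 and those that rose 5, members listed lower numbered 11 of 39 and listed higher 5 of 10, and 1 member was listed lower in mmpp. Rescaling TPM to the genes not listed higher left 22 members listed lower, moved the median log2 fold change of members to -0.97, and moved the log2 ratio of summed TPM, stroke over sham, from -1.25 to -0.97 for lower and from 1.73 to 2.01 for higher members. It could not be run for mmpp against stroke, whose table does not hold those genes. Without the glutamatergic and GABAergic terms 9 members fell, 1 rose, 21 were listed lower, 1 listed higher and 0 listed lower in mmpp. In mmpp against stroke, a minimum of 1 TPM left 2 members listed higher, and a pseudocount of 1 TPM left 1 higher and 1 lower. Leaving out Tcirg1, Gnb3 and Chrna6, a choice made after seeing the data, left 17 that fell and 9 that rose. Of 46 members that the naming rule picked in stroke against sham, 30 still had a log2 fold change of 1 or more in size after rescaling and 42 with a pseudocount of 1 TPM. Neither setting could turn the direction of a listed gene.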
